A study of Mus musculus with 108 samples.

Results

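The Sonic hedgehog pathway in the mouse cerebellum was followed through 10 genes: the ligand Shh, the receptor Ptch1, the signal transducer Smo, the transcription factors Gli1, Gli2 and Gli3, the ligand-binding inhibitor Hhip, and the growth targets Mycn, Ccnd1 and Ccnd2. They were taken as named members of the pathway and found by their Ensembl identifiers, and each of the 10 matched a single row among the 53465 genes of the count table. RNA was sequenced from cerebellum (CB), cortex (CX) and hippocampus (HIP) of wild-type (WT) mice and of littermates heterozygous for a frameshift insertion in Cul3 (Cul3+/-, labelled HET), on the strain written as C56Bl/6N in the labels and C57BL/6N by the study. Samples were taken from E17.5 embryos, at postnatal day 7 (P7) and from adults labelled P35. The mutant mice descend from a single edited founder bred to WT animals, they carry the mutation in every cell, and no agent was given. Each of the 18 groups of age, region and genotype had 6 mice, whose sex is not in the labels. The 2 adult mice whose genotype differed between the labels and the study's quality table were left out, which leaves 5 adults per genotype and 102 of 108 libraries.

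Granule cell progenitors in the outer layer of the developing cerebellum divide in response to Shh, which Purkinje cells release beneath them. Without ligand, Ptch1 holds Smo inactive. Bound ligand releases Smo, which acts through the primary cilium so that Gli2 and Gli3 reach the nucleus as activators, and Gli1, Ptch1, Hhip, Mycn and the D-type cyclins are among the genes they switch on. Gli1 adds to the activation, whereas Ptch1 and Hhip restrain it. CUL3 is the scaffold of a ubiquitin ligase, and with the adaptor SPOP it marks full-length Gli proteins for degradation. The measurements here are of RNA and hold nothing on protein.

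Cul3 itself separated the genotypes. In CB it read 168 to 218 CPM (counts per 1000000 of the library total, scaled by trimmed mean of M values, TMM) in WT libraries and 102 to 125 CPM in Cul3+/- libraries over the 3 ages, with no overlap. The log2 difference lay between -0.99 and -0.74 in the 9 datasets of one age and region, and Cul3 was the 1 gene called in each. Library totals ran from 15126114 to 44411282 expected counts, and the CB libraries from 28138816 to 42071420. Markers fit the dissections: En2, En1, Gbx2, Hoxa2 and Hoxb3 summed to 75 to 157 CPM in CB libraries and to at most 0.660 CPM in WT cortex and hippocampus, where 1 to 3 of the 5 genes were at 0 in every library of a group. Choroid plexus markers were uneven in CB, with sums from 18.6 to 3034 CPM between libraries. Ttr led that list in CB except in embryonic WT libraries, where Otx2 led. Adult WT replicates 3 and 5 stood apart from their group, with standard deviations of 0.432 and 0.254 around the group's median log2 levels against 0.123 to 0.207 in the other 8 adult CB libraries. At the younger ages the value was highest in Cul3+/- replicate 3, at 0.287 at E17.5 and 0.288 at P7, against 0.126 to 0.246 in the others.

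The promoters of 4 members are shown because their levels differed in opposite directions between P7 and adult cerebellum: Ptch1 and Hhip were higher in adults, by less than 2-fold, and Gli2 and Mycn lower. Each is the 250 bases upstream of a RefSeq start (GRCm38.p6, minus strand, written 5′ to 3′), at chr13:63565736-63565985 for Ptch1, chr8:80058009-80058258 for Hhip, chr1:119053620-119053869 for Gli2 and chr12:12941837-12942086 for Mycn. The Ptch1 start lies inside the gene's annotated span of 63508328 to 63573598 on chromosome 13. Capitals mark GC boxes, the letters GGGCGG or CCGCCC.
Ptch1: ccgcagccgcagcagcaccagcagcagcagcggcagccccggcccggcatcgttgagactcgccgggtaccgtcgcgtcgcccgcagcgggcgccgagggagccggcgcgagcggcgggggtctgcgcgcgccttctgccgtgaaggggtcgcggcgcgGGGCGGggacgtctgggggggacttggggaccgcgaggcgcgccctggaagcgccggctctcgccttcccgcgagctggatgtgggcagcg
Hhip: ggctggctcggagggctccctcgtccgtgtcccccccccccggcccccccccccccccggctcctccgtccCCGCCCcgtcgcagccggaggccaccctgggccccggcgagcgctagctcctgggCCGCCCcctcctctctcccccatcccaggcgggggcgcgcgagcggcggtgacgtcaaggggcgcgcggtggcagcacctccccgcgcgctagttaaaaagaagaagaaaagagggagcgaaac
Gli2: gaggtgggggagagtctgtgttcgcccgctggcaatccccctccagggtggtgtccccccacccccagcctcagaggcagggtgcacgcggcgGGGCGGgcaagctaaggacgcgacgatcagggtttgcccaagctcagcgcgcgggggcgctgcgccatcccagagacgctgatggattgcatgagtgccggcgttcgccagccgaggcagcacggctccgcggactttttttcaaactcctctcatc
Mycn: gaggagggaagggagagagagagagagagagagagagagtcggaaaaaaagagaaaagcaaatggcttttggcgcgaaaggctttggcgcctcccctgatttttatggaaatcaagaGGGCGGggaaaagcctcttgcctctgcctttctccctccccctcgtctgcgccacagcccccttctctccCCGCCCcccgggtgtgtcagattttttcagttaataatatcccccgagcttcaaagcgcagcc
GC boxes stood 1 time in Ptch1, 2 times in Hhip, 1 time in Gli2 and 2 times in Mycn, and 32.7% of 32851 RefSeq windows of the same 250 upstream bases held at least 1. GC content was 78.4%, 76.0%, 67.2% and 54.8% in that order, beside a median of 52.4% over the same windows. The Gli-binding letters GACCACCCA, searched on both strands over 250 bases before and 50 after the start, were in none of the 6 member windows in the table (Ptch1, Smo, Gli2, Gli3, Hhip and Mycn) and in 0.253% of all windows. An absent match says only that these letters are not in this window.

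The ligand was the scarcest member per length in the cerebellum at E17.5 and P7. Shh (GRCm38 chromosome 5, 28456815 to 28467256, minus strand) read 1.96, 2.56 and 2.89 CPM in the lowest, median and highest WT library at E17.5, 1.60, 1.87 and 2.38 CPM at P7, and 2.16, 2.61 and 3.13 CPM in adults. These levels rest on 51 to 105 counts per library. Per kilobase of exon, mean WT levels at P7 were 0.661 CPM for Shh, 1.42 for Hhip, 1.78 for Gli3, 3.51 for Gli2, 4.06 for Gli1, 8.11 for Ptch1, 16.6 for Smo, 22.3 for Ccnd1, 28.5 for Mycn and 40.2 for Ccnd2. In adults Ptch1 led at 12.9 CPM per kilobase, ahead of Ccnd1 at 8.13 and Smo at 4.80, and Gli2 was last at 0.572.

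**Figure D1:**
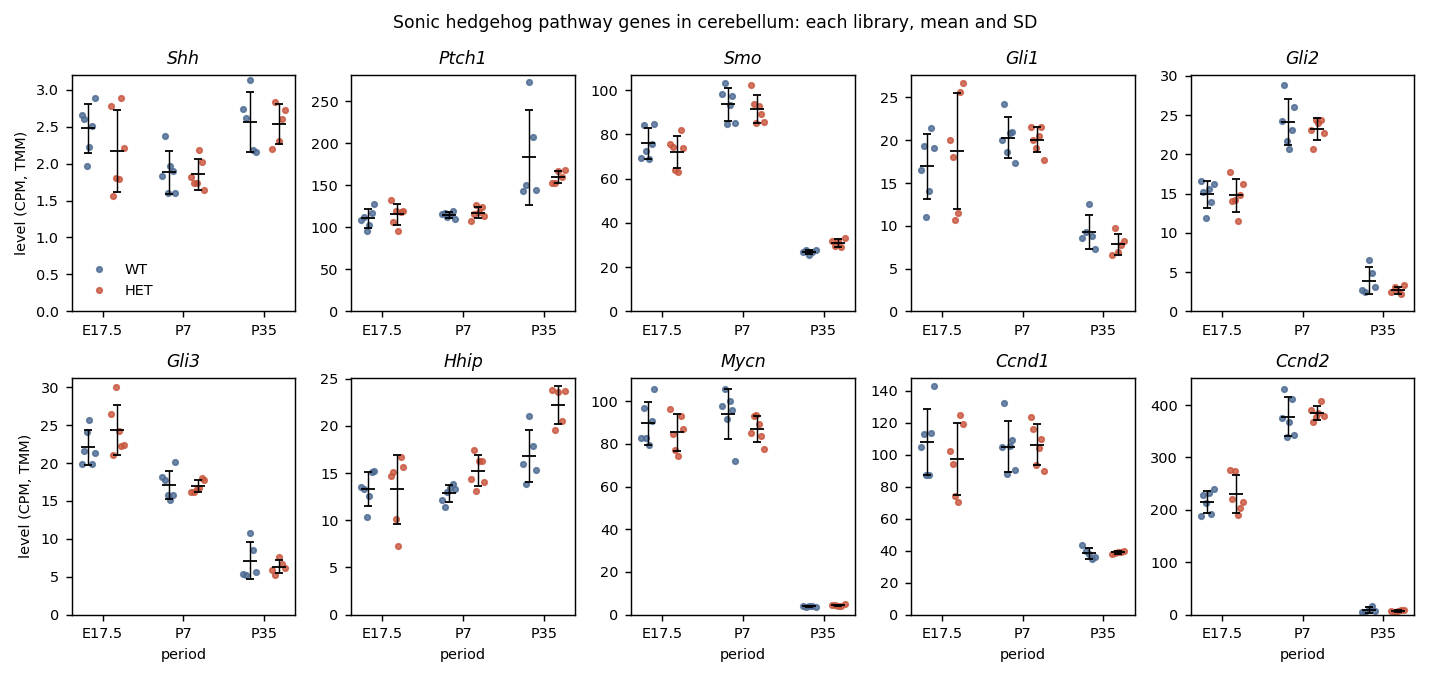
Level of each pathway gene in cerebellum (CPM after TMM scaling, linear axes) by age, WT in blue and Cul3+/- in red. Points are libraries, bars are mean and SD (n = 6 per group at E17.5 and P7, n = 5 in adults). The falls of Smo, the Gli genes, Mycn, Ccnd1 and Ccnd2 from P7 to P35 are seen in both colours, while Shh, Ptch1 and Hhip do not fall.

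From E17.5 to P7, a window in which the progenitor layer expands, none of the 10 members passed the call rule of an adjusted p of at most 0.1 with at least a 2-fold change, in either genotype. In WT cerebellum 9.19% of 17648 genes were called higher at P7 and 9.8% lower; in Cul3+/- cerebellum 10.1% of 17804 genes were called higher and 9.35% lower. In WT 5 members and in Cul3+/- 4 members had an unadjusted p under 0.05 (edgeR's quasi-likelihood test), beside 72.7% and 71.8% of all genes, and DESeq2 called 0 under the same rule in both. The changes that were seen were small and directed differently within the Gli family. Ccnd2 (chromosome 6, 127125162 to 127152193), the cyclin that drives progenitors through G1, read 189, 220 and 239 CPM in the lowest, median and highest WT library at E17.5 and 340, 372 and 431 CPM at P7. The ranges did not overlap, and the log2 difference was 0.79 ± 0.07 (SE, n = 6 and 6, adjusted p = 2.83e-07). In Cul3+/- mice it was 0.74 ± 0.09 (adjusted p = 5.36e-06).

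Gli2 (chromosome 1, 118834132 to 119053619), the main activator downstream of Smo, read 11.96, 15.4 and 16.6 CPM at E17.5 and 20.7, 23.7 and 28.9 CPM at P7 in WT libraries, again without overlap. Its log2 difference was 0.67 ± 0.09 in WT (adjusted p = 1.85e-05) and 0.65 ± 0.09 in Cul3+/- mice (adjusted p = 1.68e-05). Gli3, which mostly acts as a repressor, went the other way, from 19.9, 21.5 and 25.6 CPM to 15.2, 16.8 and 20.1 CPM. The Gli3 log2 difference was -0.39 ± 0.09 in WT (adjusted p = 9.39e-04) and -0.53 ± 0.08 in Cul3+/- mice (adjusted p = 5.93e-05). The WT ranges of Gli3 at the 2 ages overlapped by a narrow margin. Smo was 0.28 ± 0.06 and 0.35 ± 0.07 higher on the log2 scale in WT and Cul3+/- mice. Shh was lower by 0.42 ± 0.13 in WT (adjusted p = 0.0108), a difference that in Cul3+/- mice was -0.23 ± 0.16 (adjusted p = 0.232). Gli1, Ptch1, Hhip, Mycn and Ccnd1 had intervals that included 0 in both genotypes.

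From P7 to adulthood, when the progenitor layer disappears, 7 of the 10 members fell in WT cerebellum and the same 7 fell in Cul3+/- cerebellum: Smo, Gli1, Gli2, Gli3, Mycn, Ccnd1 and Ccnd2. No member was called higher. Over all genes tested, 17.3% were called lower and 16.3% higher in WT (17754 genes), and 16.9% lower and 14.8% higher in Cul3+/- (17828 genes). The median log2 change of the members was -1.38 in WT and -1.43 in Cul3+/-, beside -0.00 and -0.01 over all genes. Both comparisons kept 7 members under each alternative run, including the one without adult WT replicates 3 and 5. In whole tissue, fewer cells of a type and less RNA per cell cannot be told apart.

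The 2 largest falls were of the growth targets. Mycn (chromosome 12, 12936093 to 12941914), the transcription factor through which Shh sustains progenitor division, read 72.2, 96.7 and 106 CPM in WT libraries at P7 and 3.60, 3.84 and 4.19 CPM in adults. Its log2 change was -4.61 ± 0.10 in WT (n = 6 and 5, adjusted p = 6.03e-13) and -4.34 ± 0.07 in Cul3+/- (adjusted p = 3.57e-15). Ccnd2 went from 340 to 431 CPM at P7 to 4.45, 5.73, 6.95, 9.88 and 16.7 CPM in the 5 adult WT libraries. The 2 highest adult values belonged to replicates 5 and 3. The log2 change of Ccnd2 was -5.45 ± 0.31 in WT and -5.73 ± 0.12 in Cul3+/-, and without replicates 3 and 5 it was -6.05 ± 0.15 in WT. Ccnd1, the other D-type cyclin of these cells, fell less, by 1.47 ± 0.10 in WT and by 1.45 ± 0.08 in Cul3+/- on the log2 scale.

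Among the transducers, Gli2 fell the most. It read 20.7 to 28.9 CPM in WT libraries at P7 and 2.46, 2.74, 3.06, 4.88 and 6.50 CPM in adults, with no overlap. The log2 change was -2.65 ± 0.23 in WT (adjusted p = 1.66e-07) and -3.09 ± 0.09 in Cul3+/- (adjusted p = 1.14e-12). Smo followed, from 84.9, 95.2 and 103 CPM to 25.7, 26.8, 26.9, 27.7 and 27.8 CPM, a log2 change of -1.81 ± 0.06 in WT and -1.56 ± 0.06 in Cul3+/-. Gli1 (chromosome 10, 127329882 to 127341974), whose transcription is the usual reading of pathway activity, went from 17.3, 20.4 and 24.2 CPM at P7 to 7.31, 8.57, 8.78, 9.31 and 12.6 CPM. Its fall was the smallest of the called members in WT, at -1.14 ± 0.13 (adjusted p = 2.22e-06), and Gli3 fell by 1.29 ± 0.18. In Cul3+/- mice the values were -1.35 ± 0.10 for Gli1 and -1.42 ± 0.08 for Gli3.

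The 2 genes that restrain the pathway and the ligand did not fall. Ptch1 read 110, 115 and 119 CPM in WT libraries at P7 and 143, 144, 150, 207 and 273 CPM in adults, so that every adult library lay above every P7 library. Its log2 difference was 0.66 ± 0.15 in WT (adjusted p = 0.00112) and 0.45 ± 0.04 in Cul3+/- (adjusted p = 3.27e-07), below the 2-fold rule. The 2 highest Ptch1 values came from replicates 5 and 3. Without them the WT difference was 0.34 ± 0.04 (adjusted p = 8.55e-06). Hhip was 0.37 ± 0.10 and 0.54 ± 0.09 higher in adults than at P7 in WT and Cul3+/- on the log2 scale, and 0.22 ± 0.07 in WT without replicates 3 and 5. Shh was 0.42 ± 0.14 and 0.45 ± 0.12 higher. The adult and P7 ranges of Shh overlapped in WT, those of Hhip met at 13.9 CPM, and those of Gli1 did not overlap.

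**Figure D2:**
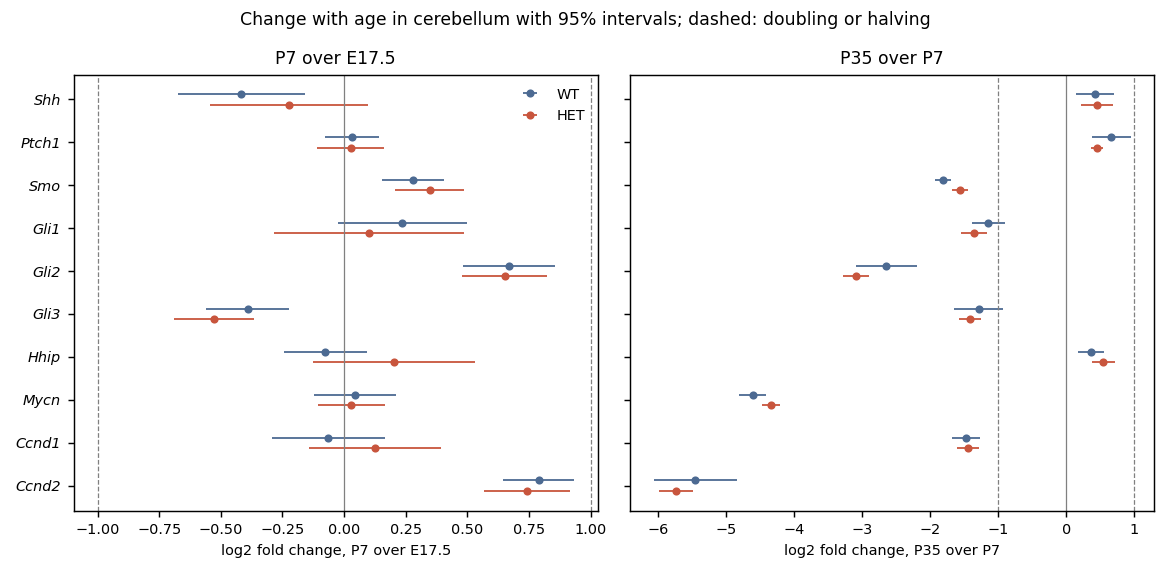
Log2 fold change of each pathway gene between successive ages in cerebellum, WT in blue and Cul3+/- in red, with normal 95% intervals from edgeR's standard error. Dashed lines mark a 2-fold change: no point passes them from E17.5 to P7, and 7 genes lie beyond the lower line from P7 to P35 in both genotypes, with Ccnd2 at -5.45 and -5.73.

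Cell type markers changed over the same window. The summed level of Mki67, Top2a, Cdk1, Ccnb1, Mcm2 and Pcna was 1070 to 1378 CPM in WT libraries at P7 and 51.0 to 58.9 CPM in adults, and all 6 genes were called lower. Markers of mature granule neurons went from 423 to 567 CPM up to 3811 to 4371 CPM, with 6 of 6 called higher, among them Cbln3 and Gabra6. Purkinje cell markers, led by Itpr1 and Car8, went from 1984 to 2289 CPM up to 8200 to 9942 CPM. The Bergmann glia and astrocyte list, led by Slc1a3 and Aqp4, went from 2402 to 2791 CPM to 2775 to 3064 CPM. Granule progenitor markers went from 1890 to 2026 CPM down to 1118 to 1347 CPM, with 4 of 6 called lower. The shares of all genes called in this WT comparison were 17.3% lower and 16.3% higher. Zic1, which mature granule neurons keep expressing, made up most of the sum at both ages, and Atoh1, the factor that defines dividing granule progenitors, was at 0 in every adult library. The part of these cell types in the members' changes was not tested.

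The rest of the pathway list held 34 genes, of which Dhh and Ihh, the other hedgehog ligands, were too low to be tested. Between E17.5 and P7 in WT, 1 of the 32 tested genes was called higher and 5 lower, with a median log2 change of -0.27 beside -0.02 over all genes. The shares over all genes were 9.19% higher and 9.8% lower. Sufu, a cytoplasmic inhibitor of the Gli proteins, was the gene called higher (1.04 ± 0.07). In Cul3+/- mice 0 genes were called higher and 4 lower, beside 10.1% and 9.35% of all genes. There Sufu differed by 0.98 ± 0.09, just under the 2-fold rule. The test of whether a genotype difference varied over the 3 ages in cerebellum called 0 of 19416 genes. The 3 largest falls were of Lrp2, a Shh-binding receptor, at -4.28 ± 0.19, of Scube3 at -2.72 ± 0.20, and of Gpr161, a ciliary receptor that keeps the pathway off, at -1.35 ± 0.07. From P7 to adulthood 2 genes were called higher and 10 lower, with a median of -0.29 beside -0.00. Over all genes 16.3% were called higher and 17.3% lower there. In Cul3+/- mice 2 were called higher and 11 lower, beside 14.8% and 16.9% of all genes. The largest falls were of Scube2 and Scube1, secreted proteins that help Shh leave the membrane, at -3.74 ± 0.19 and -2.54 ± 0.15, and of Gpr161 at -2.29 ± 0.07. The 2 called higher were Cdon, a Shh co-receptor, at 2.38 ± 0.10, and Spop, the adaptor between CUL3 and the Gli proteins, at 1.43 ± 0.17. By role, the falls in WT were 2 of 5 tested ligand-release genes, 2 of 5 receptors and co-receptors, 6 of 14 transducers and inhibitors and 0 of 5 cilium genes. In Cul3+/- mice they were 3, 2, 6 and 0.

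Next the cerebellum was set against the other regions of WT mice, which asks where in the brain the pathway's genes are expressed most. At P7, 8 of 10 members were called higher in CB than in CX and 9 of 10 higher than in HIP, and 0 lower. Background shares were 14% higher and 18.5% lower against CX (17983 genes), and 11.1% higher and 15.2% lower against HIP (17759 genes). The member medians were 1.58 and 1.59 on the log2 scale beside 0.03 and 0.02 over all genes. Gli1 separated the regions most, at 17.3, 20.4 and 24.2 CPM in the lowest, median and highest CB library against 0.988, 1.36 and 2.18 CPM in CX and 1.49, 1.74 and 1.90 CPM in HIP. The log2 difference of Gli1 was 3.84 ± 0.14 over CX (adjusted p = 3.54e-12) and 3.56 ± 0.09 over HIP (adjusted p = 3.05e-14). Gli2 came next, at 3.41 ± 0.18 and 2.97 ± 0.11.

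The exceptions at P7 were Shh and Hhip against CX and Gli3 against HIP. Shh read 1.11, 1.62 and 2.12 CPM in CX, which overlapped the 1.60 to 2.38 CPM of CB, and the difference was 0.27 ± 0.17 (adjusted p = 0.150). Hhip read 9.30, 17.6 and 20.5 CPM in CX beside 11.5, 13.2 and 13.9 CPM in CB, a difference of -0.34 ± 0.15. Against HIP both were called higher in CB, by 2.41 ± 0.20 for Shh and 1.34 ± 0.16 for Hhip. Gli3 differed by 1.11 ± 0.14 from CX and by 0.65 ± 0.08 from HIP, the latter below the 2-fold rule.

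In the embryo 5 members were called higher in CB than in CX (Shh, Ptch1, Gli1, Hhip and Ccnd1), beside 12.8% of 17373 genes higher and 5.59% lower. Against HIP, 4 were called higher (Shh, Ptch1, Gli1 and Hhip) and 1 lower (Gli3), beside 8.32% and 5.73% of 17442 genes. Shh had 72 to 105 counts in each WT CB library and 0 to 9 in each WT CX library, and the fitted log2 difference of 4.56 ± 0.37 rests on those few cortical counts. Mycn and Ccnd2, which embryonic forebrain progenitors also use, were not called against either region: Mycn read 79.4 to 106 CPM in CB and 96.7 to 144 CPM in CX, and Ccnd2 read 189 to 239 CPM in CB and 158 to 443 CPM in CX. Embryonic CX and HIP libraries differed widely among themselves, with Gli3 at 20.7 to 86.4 CPM in CX and 26.8 to 81.1 CPM in HIP. Leaving out 1 embryonic mouse at a time added a call against CX for Gli2 (1.16 without replicate 3), Smo (1.06 without replicate 4) or Gli3 (-1.01 without replicate 6), and against HIP for Ccnd2 (-1.01 without replicate 2) or Ccnd1 (1.03 without replicate 4).

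In adults 3 members were called higher in CB and 2 lower against each of the other regions. Shh, Ptch1 and Gli1 were higher, by 1.13 ± 0.15, 2.08 ± 0.17 and 3.25 ± 0.19 over CX and by 2.24 ± 0.17, 2.24 ± 0.18 and 3.39 ± 0.24 over HIP. Mycn and Ccnd2 were lower, by -1.22 ± 0.11 and -2.67 ± 0.29 against CX and by -1.16 ± 0.09 and -3.11 ± 0.30 against HIP. Background shares were 11.4% higher and 15.3% lower against CX (17806 genes), and 12.1% and 14.3% against HIP (17460 genes). Without adult replicate 2 Gli2 was also called over CX, at 1.07, and without replicate 3 Smo, at 1.02. Adult CB had the most Gli1 and the least Ccnd2 of the adult regions: Gli1 read 7.31 to 12.6 CPM in CB and 0.569 to 1.43 CPM in the others, and Ccnd2 read 4.45 to 16.7 CPM in CB and 48.8 to 88.6 CPM in the others.

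**Figure D3:**
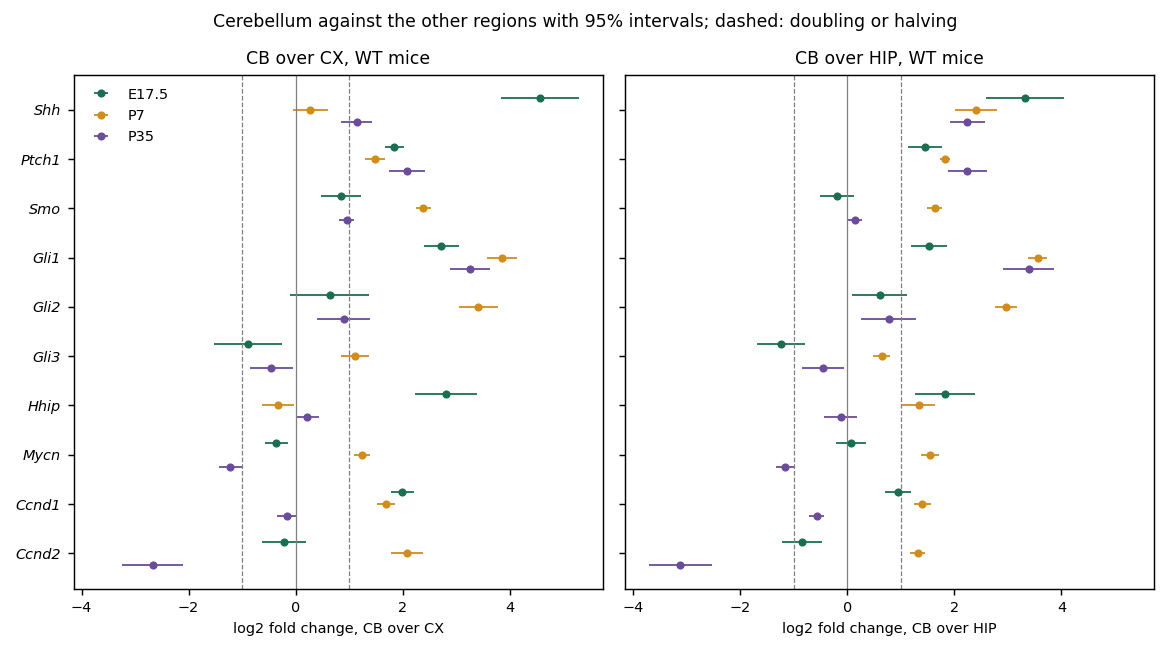
Log2 difference of each pathway gene between cerebellum and cortex (left) or hippocampus (right) in WT mice at 3 ages, with normal 95% intervals; dashed lines mark a 2-fold difference. Ptch1 and Gli1 lie beyond the upper line in all 6 comparisons, and Ccnd2 goes from 2.07 over cortex at P7 to -2.67 in adults.

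Ordered by mean level over the 9 datasets in WT, Ptch1 ran from 184 ± 56.8 CPM (SD, n = 5) in adult CB through 115 ± 3.41 at P7 and 111 ± 11.2 at E17.5 in CB to 42.9 CPM and below in every other dataset. The range of embryonic CB lay above the next dataset, and that of adult CB above P7 CB. Gli1 had the same 3 CB datasets at its head in another order: P7 at 20.3 ± 2.36 CPM, E17.5 at 16.9 ± 3.84 and adult at 9.31 ± 1.97. Its ranges overlapped between P7 and E17.5 CB, E17.5 and adult CB, and adult CB and E17.5 HIP. For Shh 7 of 8 neighbours in the order overlapped, from 2.56 CPM in adult CB to 0.0977 CPM in embryonic CX. Highest and lowest means stood 26.2-fold apart for Shh, 7.38-fold for Gli3 and 44.7-fold for Ccnd2. In Cul3+/- mice the highest and lowest datasets were the same for Shh, Ptch1, Gli1, Gli3 and Mycn.

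Across the means of the 18 groups, the 5 genes with the pattern most like Gli1 were Zic4 (Pearson's r = 0.99), Alg3, Lhx1, Chrnb4 and Gm47932 (r = 0.97 to 0.98), out of 17196 genes compared. For Shh they were Ptchd1 (r = 0.96), Ptprm, D430036J16Rik, Crabp2 and Klhl4 (r = 0.95). Within the members, the highest correlations were of Smo with Gli2 (0.92), Mycn with Ccnd2 (0.89), Gli1 with Gli2 (0.85) and Shh with Ptch1 (0.84). Shh and Gli1 correlated at 0.48, and the lowest value was that of Gli3 and Hhip at -0.79. These are descriptions: the groups share animals, and most of the spread among them is between regions and ages.

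The study's central question was what the loss of a Cul3 copy changes. In cerebellum 0 of 10 members were called between Cul3+/- and WT at an adjusted p of at most 0.1 at E17.5, P7 or in adults (edgeR's quasi-likelihood test). Over all genes, Cul3 alone was called, which is 0.00568% of 17621 genes at E17.5, 0.0057% of 17532 at P7 and 0.00584% of 17110 in adults. The study itself reported many more genes in cerebellum at the same threshold, from a model that also held sex and factors of unwanted variation. Of the 30 member tests in CB, 3 had an unadjusted p under 0.05: Hhip at P7, and Hhip and Smo in adults. The shares of all genes that reached the same p were 3.5% in embryos, 4.89% at P7 and 14.4% in adults. At P7 Gli1 differed by 0.01 (95% interval -0.15 to 0.16), Ptch1 by 0.06 (-0.02 to 0.13), Mycn by -0.09 (-0.23 to 0.06) and Ccnd2 by 0.05 (-0.07 to 0.16) on the log2 scale.

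**Figure D4:**
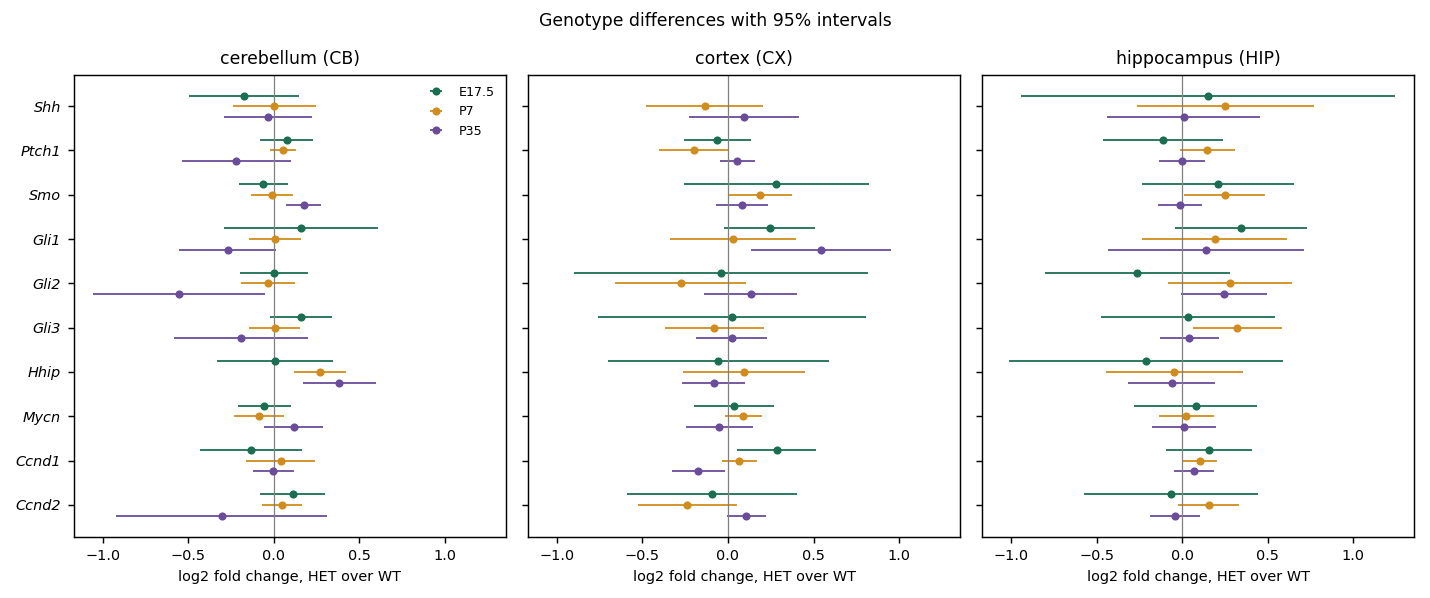
Log2 difference between Cul3+/- and WT for each pathway gene in each region and age, with normal 95% intervals. Most intervals include 0. In cerebellum those of Hhip at P7 (0.27) and of Hhip (0.38), Smo (0.17) and Gli2 (-0.55) in adults do not. In cortex those of Ccnd1 in embryos (0.28) and of Gli1 (0.54) and Ccnd1 (-0.17) in adults do not. In P7 hippocampus those of Smo (0.25), Gli3 (0.32) and Ccnd1 (0.10) do not. All adjusted p-values were above 0.1 (edgeR's quasi-likelihood test). Shh in embryonic cortex was too low to be tested.

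Hhip (chromosome 8, 79965851 to 80058006), which binds Shh at the cell surface and keeps it from Ptch1, had the largest upward difference of the members in P7 and adult cerebellum. At P7 the WT libraries read 11.5, 13.2 and 13.9 CPM in the lowest, median and highest library and the Cul3+/- libraries 13.2, 15.3 and 17.48 CPM. The 5 highest values were Cul3+/-, and the ranges overlapped between 13.2 and 13.9 CPM. The log2 difference was 0.27 ± 0.08 (adjusted p = 0.915), and 0.31 ± 0.07 (adjusted p = 0.226) without Cul3+/- replicate 3, which stood farthest from its group. In adults the WT libraries read 13.85, 15.3, 15.97, 17.8 and 21.1 CPM and the Cul3+/- libraries 19.6, 20.6, 23.6, 23.7 and 23.8 CPM. One WT library, replicate 3, lay among the Cul3+/- values. The log2 difference was 0.38 ± 0.11 (adjusted p = 0.293).

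This adult value depended on the method. DESeq2 gave Hhip an adjusted p of 0.0998 at a log2 difference of 0.38, and called 1.27% of 17110 genes. The model closest to the study's own, with upper-quartile scaling and 3 factors of unwanted variation, gave 0.43 ± 0.07 (adjusted p = 3.71e-05) and called 0.397% of genes. Without adult WT replicates 3 and 5 edgeR gave 0.54 ± 0.08 (adjusted p = 0.159). With the 2 doubtful adult mice put back under the labels' genotype it was 0.33 ± 0.10 (adjusted p = 0.193). Under the other genotype it was 0.31 ± 0.10 (adjusted p = 0.569). Other edgeR quasi-likelihood fits also gave no call: the adjusted p was 0.4035 with the replicate number as a block, 0.388 without a low-count filter and 0.347 with Xist as a covariate. At E17.5 Hhip differed by 0.01 ± 0.17, in CX by -0.08 to 0.09 and in HIP by -0.21 to -0.05. The test of whether the genotype difference varied with age in cerebellum gave an adjusted p of 0.471 for Hhip.

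Choroid plexus markers moved with the genotype at P7. Their sum was 783, 1620, 28.6, 2741, 1355 and 2002 CPM in Cul3+/- replicates 1 to 6 and 378, 27.9, 35.2, 18.6, 35.4 and 1515 CPM in WT replicates 1 to 6. The lowest of the Cul3+/- Hhip values, 13.2 CPM, was from replicate 3, which had the lowest marker sum, and WT replicate 6 read 13.3 CPM of Hhip with a sum of 1515. In adults both genotypes mixed low and high sums, 19.8 to 3034 CPM in WT and 27.2 to 2072 CPM in Cul3+/-. Adult Cul3+/- replicate 1, with a sum of 37.8 CPM, had the highest Hhip value of 23.8 CPM. Their part in the Hhip difference was not tested.

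In adult CB the WT and Cul3+/- ranges of Smo (chromosome 6, 29735503 to 29761365) did not overlap, while those of the other members did. The WT libraries read 25.7, 26.8, 26.9, 27.7 and 27.8 CPM and the Cul3+/- libraries 29.0, 29.4, 31.7, 31.8 and 33.0 CPM. The log2 difference was 0.17 ± 0.05 (adjusted p = 0.295), and 0.12 to 0.19 under the alternatives. How many of all genes have adult CB ranges without overlap was not counted. In that dataset 14.4% of 17110 genes had an unadjusted p under 0.05 (edgeR's quasi-likelihood test). At P7 Smo differed by -0.01 ± 0.06 and at E17.5 by -0.06 ± 0.07.

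**Figure D5:**
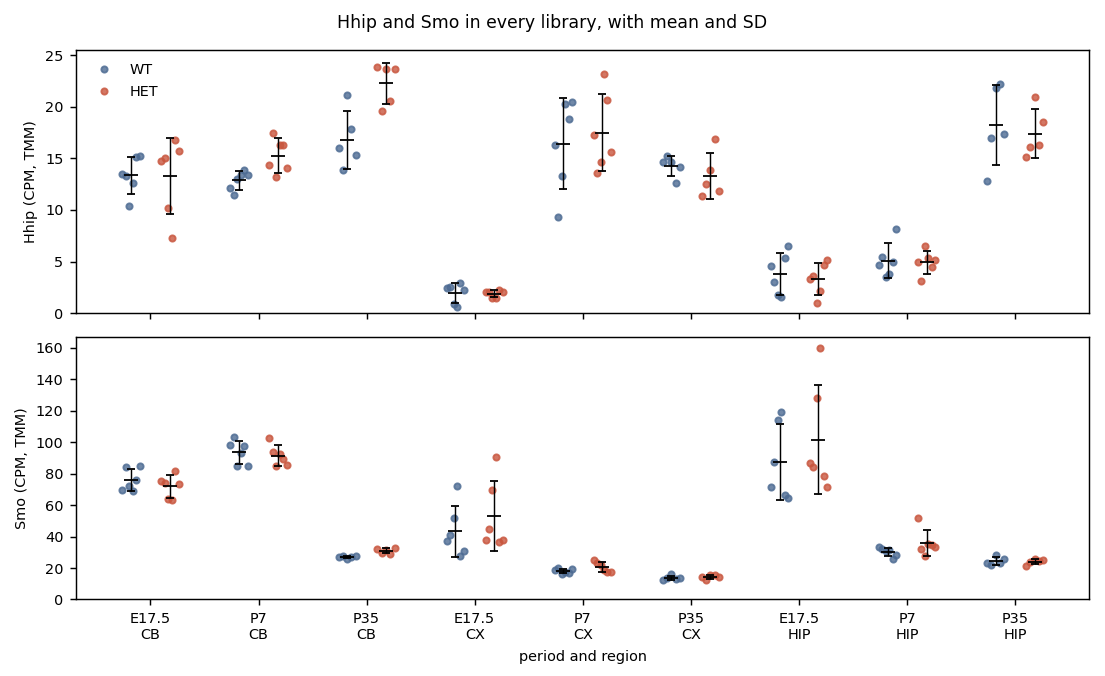
Hhip (top) and Smo (bottom) in every library of the 9 datasets in CPM, WT in blue and Cul3+/- in red, with mean and SD. In adult cerebellum 4 of 5 WT libraries lie below the Cul3+/- libraries for Hhip and 5 of 5 for Smo, and the genotypes overlap in every other dataset shown.

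Several downward differences in adult CB moved with adult WT replicates 3 and 5. Gli2 differed by -0.55 ± 0.26 (adjusted p = 0.350), but the WT values of replicates 3 and 5, 6.50 and 4.88 CPM, lay above all others, and without those 2 libraries the difference was -0.04 ± 0.15. Ptch1 went from -0.22 ± 0.16 to 0.11 ± 0.04, Gli3 from -0.19 ± 0.20 to 0.20 ± 0.11 and Ccnd2 from -0.30 ± 0.31 to 0.31 ± 0.19 when they were left out. Gli1 stayed downward, going from -0.27 ± 0.15 to -0.12 ± 0.13. The same 2 libraries had the most Zbtb20, at 266 and 203 CPM beside 83.4 to 106 CPM in the other adult CB libraries. What sets them apart was not tested.

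In embryonic CB, Gli1 and Hhip were lowest in the same replicates of both genotypes. Gli1 read 11.1 and 14.1 CPM in WT replicates 3 and 4 and 16.6 to 21.4 CPM in the other 4. In Cul3+/- replicates 3 and 4 it read 10.6 and 11.5 CPM, and 18.004 to 26.7 CPM in the other 4. The names of these mice share the first part S3, whose meaning is not given. The same libraries had the lowest sums of granule progenitor markers, 955 and 924 CPM in WT and 798 and 813 CPM in Cul3+/-, against 1092 to 1389 CPM in the others. They were also lowest for proliferation (629 to 775 CPM against 842 to 984), Bergmann glia and astrocyte (829.1 to 988 CPM against 1070 to 1497) and choroid plexus markers (19.6 to 34.5 CPM against 42.7 to 316). In embryonic WT CB that last list was led by Otx2 (mean 37.4 CPM), ahead of Ttr (8.55 CPM). Ttr itself read 1.69 and 1.27 CPM in WT replicates 3 and 4 and 1.82 to 41.5 CPM in the other WT libraries. In Cul3+/- replicates 3 and 4 Ttr read 2.70 and 2.35 CPM, and 2.91 to 247 CPM in the others. Purkinje cell markers did not separate replicates 3 and 4. Their sums were 1026 and 1272 CPM in WT replicates 3 and 4 and 1044 and 1092 CPM in Cul3+/- replicates 3 and 4. The other libraries had 1083 to 1323 CPM. The part of these markers was not tested. The same libraries had the lowest Hhip, at 10.4 and 12.6 CPM in WT and 10.2 and 7.30 CPM in Cul3+/-. With that name part as a block, 0 members were called. The genotype difference of Gli1 was 0.16 ± 0.23 without the block, and its interval reached from -0.29 to 0.61.

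Outside the cerebellum 0 members were called in any of the 6 datasets, of 10 tested in each and 9 in embryonic CX. Background shares were 0.00603%, 0.00566% and 0.00569% in CX at E17.5, P7 and P35, and 0.00586%, 0.00563% and 0.00584% in HIP, in each case Cul3. Log2 differences ran from -0.28 (Gli2 at P7) to 0.54 (Gli1 in adults) in CX and from -0.26 (Gli2 at E17.5) to 0.34 (Gli1 at E17.5) in HIP. Over all 9 datasets 7 of 89 member tests had an unadjusted p under 0.05, beside 1.67% to 14.4% of all genes in a dataset, and DESeq2 called 0 members in all but adult CB. The test of an age-dependent genotype difference in CB called 0% of 19416 genes and 0 members. One member, Smo, had an unadjusted p under 0.05 there, beside 13.2% of all genes, and DESeq2 also called 0 members.

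In the rest of the pathway list 0 of 32 tested genes were called between the genotypes in CB at any age. Their median log2 difference was 0.04 at E17.5, 0.02 at P7 and -0.05 in adults, beside 0.00 over all genes at each age. The smallest p-values at E17.5 were those of Gas1, a co-receptor, at -0.18 ± 0.07, and Lrp2 at 0.35 ± 0.14. At P7 they were those of Cdon at 0.31 ± 0.09 and Scube3 at 0.58 ± 0.18, and in adults those of Ulk3, a Gli kinase, at -0.56 ± 0.19, and Evc, a ciliary protein that binds Smo, at 0.20 ± 0.07. Their adjusted p-values were 0.988, 0.915 and 0.306 to 0.324. The genes of the CUL3 ligase that acts on Gli proteins gave no call: Spop differed by 0.06 ± 0.08, -0.01 ± 0.06 and -0.31 ± 0.18 at the 3 ages, Spopl by -0.00 ± 0.04, -0.00 ± 0.05 and 0.11 ± 0.09, and Rbx1 by -0.02 ± 0.04, -0.07 ± 0.06 and 0.11 ± 0.09.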

How the data were processed

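The authors trimmed reads with cutadapt 1.14, aligned them with STAR 2.5.3a to mouse GRCm38 and counted genes with RSEM 1.3, per the submitters' notes. The deposited table holds RSEM expected counts, of which 5.76% of values were not whole, and they were rounded here. The reads were stranded and depleted of ribosomal RNA. Symbols matched 53274 of 53465 Ensembl identifiers. Positions and exon lengths come from GENCODE M21 on GRCm38, and promoters from RefSeq.

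Genes were kept by edgeR's filterByExpr (at least 10 counts, 15 in total), scaled by TMM and tested with edgeR 4.0.16 by quasi-likelihood, with Benjamini-Hochberg adjustment over all genes kept. Genotype was tested within each age and region and called at an adjusted p of 0.1. Age and region comparisons also required a 2-fold change. Standard errors were derived from the log2 fold change and its F statistic (absolute value over root F). Levels are CPM over 102 libraries. Marker sums add the CPM of a list. R 4.3.3, DESeq2 1.42.0 and limma 3.58.1 were used. Scripts were tested on simulated data.

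P-values of the genotype and age comparisons within a region set a difference against the spread between mice. Those between regions treated libraries of the same mouse as independent. Replicate numbers were checked by correlating the deviations of same-numbered WT and Cul3+/- libraries: every pair exceeded 0.1 only in P7 cortex (0.156 to 0.494). Regions of the same mouse are paired, and mouse as a block changed no call. Sex is not in the labels, and Xist entered an alternative. The gene, pathway and marker lists were chosen with earlier results of these data known. Named genes were the 10 members, Cul3, Spop, Spopl, Rbx1, the called list genes with the 3 largest changes in each direction with age, otherwise the 2 of smallest p, the 2 most abundant markers of a list, and the 5 genes closest in pattern to Shh and to Gli1.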

Additional observations from a re-analysis of the deposited data

Results flagged for a closer look

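Of 180 groups of a member, region, age and genotype, 12 (6.67%) held a library whose gap to its neighbour exceeded Dixon's limit; chance flags about 1 in 20. None was in the cerebellum. WT replicate 4 of the P7 cortex was flagged for 4 members: Ptch1 at 57.8 CPM (next 42.8), Gli1 at 2.18 CPM (next 1.40), Gli2 at 4.15 CPM (next 2.12) and Ccnd2 at 150.5 CPM (next 86.8). It enters the comparison of cerebellum with cortex at P7, in which 8 members were called with and without each mouse. Mycn in the same group was high in replicate 5, at 45.0 CPM (next 40.3). In embryonic cortex, Gli1 was low in Cul3+/- replicate 6 at 2.32 CPM, and Ccnd1 was high in Cul3+/- replicate 4 at 48.4 CPM (next 34.6). Replicate 4 of the embryonic Cul3+/- hippocampus was also high for Ccnd1, at 88.1 CPM (next 64.8). In P7 hippocampus, Shh was low in Cul3+/- replicate 3 at 0.214 CPM, Smo was high in Cul3+/- replicate 1 at 51.6 CPM, and Ccnd2 was high in WT replicate 5 at 180.2 CPM. In adult hippocampus, Gli2 was high in Cul3+/- replicate 6 at 3.29 CPM.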

How the results depend on the processing

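Of 311 recomputed counts of called members, 309 stayed within 1.5 times the reported one. The 2 that moved were both of genotype in adult cerebellum, where DESeq2 and the model with factors of unwanted variation each called 1 member, Hhip, in place of 0. The member comparisons with age kept 7, and those of cerebellum with the other regions stayed between 5 and 9. When the replicate number was fitted as a block, the numbers of called members were 0 for genotype in all 9 datasets and 7 from P7 to P35, and with mouse as a block 5 to 9 between regions, and no call changed. The alternative without adult WT replicates 3 and 5 was chosen after seeing the data.

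The genotype difference in cerebellum changed sign for members near 0. In adults it also did so for Ptch1, Gli3 and Ccnd2, at -0.22, -0.19 and -0.30 in the main fit. None of them passed the threshold on either side. At E17.5 the replicate block gave Gli2 -0.0048 and Hhip -0.032, and the name block Hhip -0.025. At P7 the sign turned for Shh with DESeq2 (-0.00073), without a low-count filter (-0.010), with the replicate block (-0.0046) and with the name block (-0.0053); for Gli1 without a filter (-0.0079), with the replicate block (-0.0040) and with the name block (-0.0057); and for Gli3 without a filter (-0.0080), with the unwanted-variation model (-0.064), with the replicate block (-0.0031) and with the name block (-0.0085). That model also turned Smo to 0.011 and Mycn to 0.013 at P7, and Shh to 0.0998, Ptch1 to 0.015 and Gli3 to 0.019 in adults. Adult Ccnd1 was 0.0016 without a filter, 0.0035 with the replicate block and 0.017 with the 2 doubtful mice under the labels' genotype. Without adult WT replicates 3 and 5, Ptch1 was 0.11, Gli3 0.20 and Ccnd2 0.31. The cause was not tested.

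Leaving out 1 library at a time gave these ranges for results that changed sign: at E17.5 Gli2 -0.054 to 0.070 and Hhip -0.070 to 0.14; at P7 Shh -0.062 to 0.073, Smo -0.062 to 0.015, Gli1 -0.044 to 0.053, Gli2 -0.079 to 0.015, Gli3 -0.034 to 0.048 and Ccnd1 -0.026 to 0.11; in adults Shh -0.092 to 0.042, Ccnd1 -0.033 to 0.048 and Ccnd2 -0.47 to 0.081. From E17.5 to P7 in WT, Ptch1 ranged from -0.012 to 0.090 and Ccnd1 from -0.13 to 0.045. Between embryonic regions, Ccnd2 over cortex ranged from -0.35 to 0.026 and Mycn over hippocampus from -0.032 to 0.16. Counting every alternative scaling, raw totals included, levels moved by more than 1 SD in 23 of 120 recomputed CB means. The 23 are not split by scaling here, so the share on raw totals alone is not given. Shh had 51 to 105 counts per CB library, the fewest of the members at E17.5 and P7.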
